A study of Homo sapiens with 12 samples.

Results

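The 10 genes described here encode the cohesin core and the proteins that set when cohesin holds chromosomes together. Members were taken by gene symbol from the deposited tables of 2 human mantle cell lymphoma cell lines, Granta-519 and JeKo-1. The core was represented by 5 genes, SMC1A, SMC3, RAD21, STAG1 and STAG2. The regulators were 5 genes, SGOL1, SGOL2, ESCO2, CDCA5 and WAPAL, whose current symbols are SGO1 and SGO2 for the shugoshins and WAPL for WAPAL. These 10 were among 23617 symbols in the Granta-519 table and 23615 in the JeKo-1 table. Mantle cell lymphoma is a cancer of B cells that usually carries a translocation activating CCND1, the gene of cyclin D1. Of the 4 groups, Granta-519 shCycD1 and JeKo-1 shCycD1 cells carried a lentiviral short hairpin RNA (shRNA) that silences cyclin D1. The corresponding shCtrl cells of each line carried a control shRNA. All 12 libraries came from cells that had been infected with lentivirus and selected with puromycin, and 10% fetal bovine serum was in the medium of both lines, which was RPMI for Granta-519 and DMEM for JeKo-1. The number of different hairpins is not given in the sources used here. Each group had 3 libraries of bulk RNA that the series design calls biological replicates. Nothing further says that they came from separate infections, so p-values measure the spread between these libraries.

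Cohesin is a ring of SMC1A, SMC3 and RAD21, to which either STAG1 or STAG2 is bound, and it holds sister chromatids together between DNA replication and anaphase. In S phase ESCO2 acetylates SMC3, and sororin, the product of CDCA5, then keeps the releasing factor WAPAL from opening the ring. Shugoshins protect cohesin at centromeres until separase cleaves RAD21, and outside cell division cohesin also folds chromatin into loops, including at the immunoglobulin loci of B cells.

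Promoter windows for 8 of the 10 genes were held in a RefSeq-derived table on build GRCh38.p14. RAD21 and ESCO2 had no entry. Each window runs from 250 bases before to 50 bases after an annotated start site, and 4 are printed because they belong to 3 regulators with large changes and to the 1 regulator, WAPAL, with the smallest. All are 5′ to 3′ on the strand of the gene. Capitals mark matches, on either strand, to 3 kinds of motif found near cell cycle genes. These are the cell cycle homology region (CHR), spelt TTTGAA or with TTCGAA instead, and the CCAAT box bound by NF-Y, which reads ATTGG on the other strand. The E2F motif was searched as TTCCCGC and its variant TTCGCGC, and also with TTGGCGC or the variant spelt TTGCCGC. The windows are CDCA5 at chr11:65083991-65084290 on the minus strand, SGOL1 at chr3:20186157-20186456 on the minus strand, SGOL2 at chr2:200525892-200526191 on the plus strand, and WAPAL at chr10:86521743-86522042 on the minus strand.
CDCA5: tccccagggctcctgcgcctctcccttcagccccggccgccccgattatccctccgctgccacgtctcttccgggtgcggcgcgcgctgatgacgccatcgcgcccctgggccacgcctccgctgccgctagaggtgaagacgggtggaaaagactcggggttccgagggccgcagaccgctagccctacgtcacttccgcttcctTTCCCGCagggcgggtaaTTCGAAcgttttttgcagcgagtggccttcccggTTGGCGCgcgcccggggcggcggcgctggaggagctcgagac
SGOL1: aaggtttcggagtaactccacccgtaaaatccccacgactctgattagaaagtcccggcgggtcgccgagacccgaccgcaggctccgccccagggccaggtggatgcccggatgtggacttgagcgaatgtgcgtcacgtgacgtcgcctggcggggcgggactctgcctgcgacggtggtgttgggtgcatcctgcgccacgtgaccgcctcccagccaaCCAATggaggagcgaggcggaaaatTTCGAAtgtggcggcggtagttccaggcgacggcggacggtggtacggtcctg
SGOL2: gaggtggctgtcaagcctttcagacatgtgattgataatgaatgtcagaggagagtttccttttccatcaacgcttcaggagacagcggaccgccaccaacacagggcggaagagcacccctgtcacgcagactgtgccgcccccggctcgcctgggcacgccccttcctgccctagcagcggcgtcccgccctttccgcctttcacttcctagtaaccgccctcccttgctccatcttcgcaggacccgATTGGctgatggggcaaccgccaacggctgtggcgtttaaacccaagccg
WAPAL: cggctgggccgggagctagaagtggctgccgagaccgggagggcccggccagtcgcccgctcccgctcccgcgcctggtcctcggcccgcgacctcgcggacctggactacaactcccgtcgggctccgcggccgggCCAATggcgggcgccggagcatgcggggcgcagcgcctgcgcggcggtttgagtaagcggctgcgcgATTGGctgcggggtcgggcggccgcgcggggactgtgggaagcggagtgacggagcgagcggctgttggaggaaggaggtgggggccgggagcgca

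The CDCA5 window held TTCGAA at positions -26 to -21 from the start site, TTCCCGC at -44 to -38 and TTGGCGC at 9 to 15. In the SGOL1 window TTCGAA spanned the start site, from -3 to 3, and CCAAT lay at -28 to -24. The SGOL2 window held a CCAAT box alone, on the opposite strand at 1 to 5. WAPAL held CCAAT at -113 to -109 and, on the opposite strand, at -46 to -42. Measured from a second annotated start of SGOL2, that same CCAAT box lay at -65 to -61, and that window held no other match. Among the core genes, SMC3 had TTTGAA on the opposite strand at -151 to -146, and SMC1A, from the second of its annotated starts, had TTCCCGC at -19 to -13. STAG1 had TTCCCGC at -182 to -176 and CCAAT boxes on the opposite strand at -241 to -237 and 1 to 5. STAG2 had a CCAAT box on the opposite strand at -157 to -153 from one annotated start, and from another TTGGCGC at -50 to -44 and such boxes at -242 to -238 and -171 to -167. No matches overlapped in these windows. Over all 35116 promoters in the table, 16.4% held a CHR, 13% an E2F motif and 34.6% a CCAAT box, so each kind is common by itself. A match is a description of the letters and not a test of binding.

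**Figure D1:**
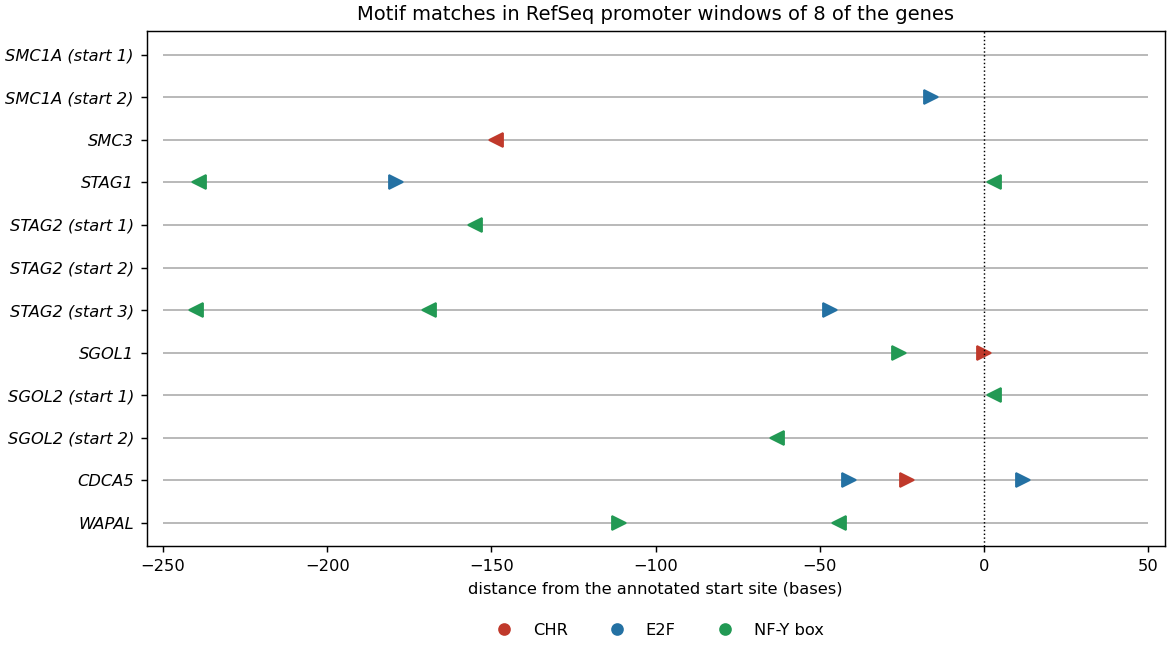
Positions of CHR, E2F and NF-Y box matches in the RefSeq promoter windows of 8 of the genes, with distance from the annotated start site in bases on the horizontal axis and 1 line per annotated start. Arrowheads pointing right are matches on the gene's strand and those pointing left on the opposite strand. CDCA5 and SGOL1 have a CHR within 26 bases of the start, and SMC3 has one further upstream. Both WAPAL and SGOL2 have NF-Y boxes alone.

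The targeted gene was checked first. CCND1 stood at 213, 298 and 292 RPKM (reads per kilobase, scaled to library size) in Granta-519 shCycD1 libraries and at 924, 1044 and 874 RPKM in shCtrl libraries. JeKo-1 cells had 65.4, 64.8 and 67.4 RPKM in shCycD1 libraries and 395, 330 and 315 RPKM in shCtrl libraries. All 6 listed B-cell markers were at 1 RPKM or more in every library, but some changed. CD79A and CD79B fell in Granta-519, where both were positive without a call under spike-in scaling. In JeKo-1 CD79A, CD79B and CD22 rose, CD22 by 1.83 on the log2 scale, and with spike-in scaling only CD22 kept its call. Of the markers of other cells, the 5 of T and NK cells summed to at most 1.27 RPKM in Granta-519 and 3.63 RPKM in JeKo-1. The 4 myeloid markers summed to 38.8 to 45.6 RPKM in Granta-519 shCycD1 libraries and 45.4 to 51.5 RPKM in shCtrl libraries, nearly all of it CSF1R, with MPO at 0, and to at most 2.39 RPKM in JeKo-1. The 5 epithelial, fibroblast and packaging cell markers summed to 7.79 to 10.1 RPKM in Granta-519 shCycD1 libraries and 6.06 to 7.15 RPKM in shCtrl libraries, mostly COL1A1, which rose (0.48, limma adjusted p = 0.019), and to at most 3.08 RPKM in JeKo-1. The part of these markers in the results below was not tested. Across genes, Pearson's r between libraries of the same group was 0.981 to 0.988 for Granta-519 and 0.968 to 0.974 for JeKo-1. Sequencing depth is unknown, because sums of the values over gene lengths did not return the nominal total. No source used here gives the gene lengths. The Granta-519 level relative to that of JeKo-1 fell as the genomic span of a gene grew relative to its longest transcript, with a median log2 ratio of 1.65 in the lowest of 8 bins of genes and -1.68 in the highest. From this the Granta-519 values were taken to be per length of genomic span and the JeKo-1 values per exonic length, which is an inference. Levels of different genes are set side by side in JeKo-1 alone, and only as far as that inference holds. All JeKo-1 RPKM values rest on reading its table as a natural log, which is inferred too. Every library carried synthetic spike-in RNAs, and scaling to 49 of them moved the median log2 change of all genes to 0.77 for Granta-519, and to -0.04 for JeKo-1. Without this scaling the medians were 0.03 in Granta-519 and 0.09 in JeKo-1. All changes below are on that unscaled basis unless the spike-ins are named.

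Of the 10 genes, 9 fell and 0 rose in each line when cyclin D1 was silenced, WAPAL being the exception in both, and in Granta-519 that count held on the unscaled values only. In JeKo-1 ESCO2 passed the filter on low values (1 RPKM in 3 of 6 libraries) through its shCtrl libraries alone, so it had to be lower, and among the other 9 genes 8 fell there. The test was limma on log2(RPKM + 0.5) over all tested genes, with Benjamini-Hochberg adjustment and a threshold of 0.05, and changes are shCycD1 minus shCtrl. In Granta-519, 18.2% of 12668 tested genes fell and 22.4% rose. In JeKo-1, 27.8% of 11866 tested genes fell and 36.7% rose, and 13.1% of the 10653 genes tested in both lines fell in both. Granta-519 had a median change of -0.75 over the 10 genes, and JeKo-1 one of -1.23 over the 9 without ESCO2. With spike-in scaling, which raised all genes of Granta-519 together, 2 of the 10 (ESCO2 and CDCA5) fell there and WAPAL rose. The JeKo-1 count, ESCO2 included, stayed at 9. In bulk RNA, fewer cells in the phases of the cycle when these genes are used and less RNA per cell cannot be told apart.

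**Figure D2:**
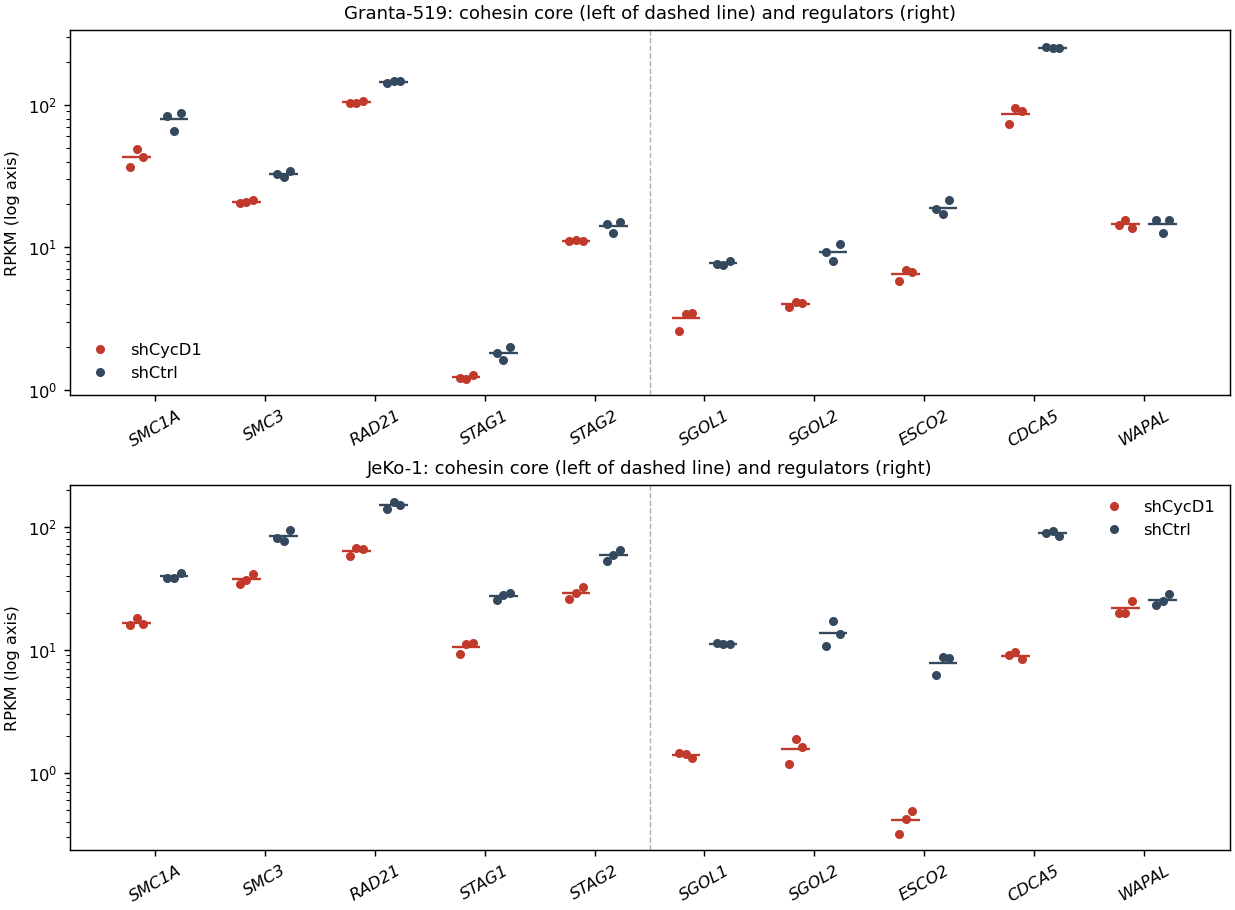
RPKM of the 10 genes in each library on a log axis, Granta-519 above and JeKo-1 below, with shCycD1 in red left of shCtrl in dark blue and a bar at each group mean. The groups are separate for every gene but WAPAL, though for ESCO2 in JeKo-1 the filter on low values fixed this. Separation with silenced libraries lower was found for 24.2% of tested Granta-519 genes and 30.5% of those of JeKo-1. Levels may be compared between genes in the JeKo-1 panel only, as far as its values are per exonic length. The core genes SMC3, RAD21, STAG1 and STAG2 of Granta-519 change direction with spike-in scaling.

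The core ring genes were lower in silenced cells of both lines, by moderate amounts in Granta-519 and to 38.5 to 49.0% of the shCtrl mean in JeKo-1, or 48.5 to 59.3% under a log2 reading of that table. GC correction made the JeKo-1 changes smaller but left them called. They were then -1.18 for SMC1A, -0.80 for SMC3, -0.92 for RAD21, -1.02 for STAG1 and -0.59 for STAG2. All 5 fell in each line, with a median of -0.48 for Granta-519 and of -1.22 for JeKo-1, and no shCycD1 library overlapped a shCtrl library for any of them. Such a separation, with silenced libraries lower, was found for 24.2% of the tested Granta-519 genes and for 30.5% of those of JeKo-1. Under spike-in scaling SMC3, RAD21, STAG1 and STAG2 turned positive in Granta-519 without passing the test, at 0.11, 0.26, 0.32 and 0.41, and SMC1A was at -0.13 (limma adjusted p = 0.678).

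SMC1A, which with SMC3 forms the long arms of the ring, had 36.5, 49.2 and 42.9 RPKM in Granta-519 shCycD1 libraries and 83.6, 65.7 and 88.0 RPKM in shCtrl libraries. Its fall of -0.88 ± 0.15 (SE, limma adjusted p = 0.00401) was the largest of the core in that line. The second shCtrl library was the lowest of its group for SMC1A, and also for the proliferation marker MKI67 (92.0 RPKM, against 175 and 211 RPKM in the other shCtrl libraries). Without that library SMC1A was at -1.0. In JeKo-1 the gene had 15.8, 18.0 and 16.3 RPKM in shCycD1 libraries and 38.4, 38.6 and 41.9 RPKM in shCtrl libraries, a change of -1.23 ± 0.08 (adjusted p = 2.21e-05).

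SMC3 is the arm that ESCO2 acetylates. It had 20.4, 20.7 and 21.5 RPKM in silenced Granta-519 cells and 32.8, 31.0 and 34.2 RPKM in their controls, a change of -0.63 ± 0.07 (adjusted p = 0.000756). JeKo-1 libraries had 34.1, 37.2 and 41.3 RPKM with shCycD1 and 81.7, 76.3 and 95.1 RPKM with shCtrl, a change of -1.16 ± 0.11 (adjusted p = 9.96e-05). The spread within a group was thus small against the gap between groups in both lines.

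RAD21, the clasp that separase cuts at anaphase, had 104, 103 and 106 RPKM in Granta-519 shCycD1 libraries and 143, 147 and 147 RPKM in shCtrl libraries. This change of -0.48 ± 0.06 (adjusted p = 0.00111) left 71.7% of the shCtrl mean. JeKo-1 cells had 57.9, 67.2 and 66.2 RPKM with shCycD1 and 139, 160 and 150 RPKM with shCtrl, which left 42.7% (-1.22 ± 0.09, adjusted p = 2.78e-05). RAD21 shares its locus with RAD21-AS1 and UTP23 on the opposite strand. Whether the authors' counting used strand is not given, so reads from such neighbours cannot be told apart here. RAD21-AS1 had 2.42, 2.27 and 2.89 RPKM in Granta-519 shCycD1 libraries and 4.71, 2.71 and 4.01 RPKM in shCtrl libraries, and in JeKo-1 it had 0.307, 0.361 and 0.206 RPKM in shCycD1 libraries and 0.412, 0.683 and 0.472 RPKM in shCtrl libraries. It was low beside RAD21 in both lines, with overlapping groups in Granta-519 and lower silenced libraries in JeKo-1. In Granta-519 UTP23 had 72.2 to 78.1 RPKM in shCycD1 libraries and 66.6 to 70.2 RPKM in shCtrl libraries, and in JeKo-1 it had 12.4 to 12.8 RPKM in shCycD1 libraries and 13.4 to 16.2 RPKM in shCtrl libraries.

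The alternative subunits STAG1 and STAG2 bind the ring one at a time. STAG1 had 1.21, 1.20 and 1.27 RPKM in silenced Granta-519 cells and 1.83, 1.62 and 2.0 RPKM in their controls, and changed by -0.42 ± 0.10 (adjusted p = 0.0131). In JeKo-1 it had 9.18, 11.1 and 11.3 RPKM with shCycD1 and 25.4, 27.7 and 28.9 RPKM with shCtrl, a change of -1.34 ± 0.10 (adjusted p = 4.11e-05) and the most negative of the core there. PCCB, its neighbour on the opposite strand, had 5.36 to 5.78 RPKM in Granta-519 shCycD1 libraries and 4.23 to 4.43 RPKM in shCtrl libraries. In JeKo-1 PCCB had 52.8 to 54.2 RPKM with shCycD1 and 49.8 to 54.1 RPKM with shCtrl, above STAG1 in both groups.

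STAG2 had 11.0, 11.2 and 11.1 RPKM in Granta-519 shCycD1 libraries and 14.7, 12.7 and 15.1 RPKM in shCtrl libraries. Its change of -0.33 ± 0.09 (adjusted p = 0.0226) had the highest adjusted p of the calls among the members. The call was lost with replicate numbers fitted as a block (adjusted p = 0.0525) and when any library of that line other than shCtrl 2 was left out (-0.34 to -0.28, adjusted p of 0.0538 to 0.0813). In JeKo-1 STAG2 had 25.8, 28.8 and 32.2 RPKM with shCycD1 and 53.1, 59.5 and 64.7 RPKM with shCtrl, a change of -1.02 ± 0.11 (adjusted p = 0.000183), or -0.59 after correction for GC content.

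The regulators separated into 4 genes with deep falls and 1 with no call. SGOL1, SGOL2 and CDCA5 fell in both lines, and ESCO2 fell in Granta-519. The 4 were left at 34.3 to 42.9% of the shCtrl mean in Granta-519 and at 5.23 to 12.4% in JeKo-1. The JeKo-1 direction of ESCO2, at 5.23%, was fixed by the filter, so its values there are a description. Read as log2, the JeKo-1 table gave 7.63 to 18.2%. The changes were then -2.32 for CDCA5, -2.07 for SGOL2 and -1.96 for SGOL1, all called, and -2.38 for ESCO2 as a description. With GC correction the JeKo-1 changes were -3.42 for CDCA5, -2.31 for SGOL2 and -2.37 for SGOL1, all called. Each of the 4 changed by -1 or lower in Granta-519, a size reached with a call by 3% of genes tested there. In JeKo-1 CDCA5, SGOL1 and SGOL2 did so, against 6.98% of the genes tested. Proliferation markers moved with them. MKI67, TOP2A, CCNA2, MCM2 and TYMS, 5 of 5, fell in each line, and in Granta-519 TYMS lost its call with spike-in scaling (-0.63, adjusted p = 0.0511). Their summed level was 232 to 284 RPKM in Granta-519 shCycD1 libraries and 637 to 807 RPKM in shCtrl libraries, and 60.2 to 64.9 RPKM in JeKo-1 shCycD1 libraries and 518 to 532 RPKM in shCtrl libraries. The part of proliferation in the falls of the cohesin genes was not tested.

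CDCA5 encodes sororin, which stabilises cohesin on replicated DNA. It had 73.0, 95.3 and 90.4 RPKM in Granta-519 shCycD1 libraries, against 255, 249.6 and 250.4 RPKM in shCtrl libraries. At -1.55 ± 0.11 (adjusted p = 0.000191) it stood at the 0.426 percentile of all changes in that line. JeKo-1 libraries had 9.01, 9.53 and 8.37 RPKM with shCycD1 and 89.6, 91.7 and 83.7 RPKM with shCtrl. This was a change of -3.23 ± 0.08 (adjusted p = 6.18e-07), at the 0.598 percentile, and 10.2% of the shCtrl mean was left. With spike-in scaling the Granta-519 change was -0.81 and kept its call (adjusted p = 0.009).

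ESCO2, the acetyltransferase of SMC3 in S phase, had 5.84, 6.94 and 6.75 RPKM in Granta-519 shCycD1 libraries and 18.5, 17.1 and 21.4 RPKM in shCtrl libraries. It changed by -1.47 ± 0.11 (adjusted p = 0.000232), or by -0.73 with spike-in scaling, where the call held (adjusted p = 0.0439). In JeKo-1 it had 0.320, 0.420 and 0.494 RPKM in shCycD1 libraries and 6.26, 8.81 and 8.53 RPKM in shCtrl libraries. There, with its direction fixed by the filter, its change of -3.19 is a description and understates the gap of low values. A pseudocount of 0.1 gave -3.96, and one of 1 gave -2.64.

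SGOL1 had 2.59, 3.44 and 3.49 RPKM in Granta-519 shCycD1 libraries and 7.60, 7.52 and 8.02 RPKM in shCtrl libraries, a change of -1.17 ± 0.12 (adjusted p = 0.00056). JeKo-1 cells had 1.44, 1.42 and 1.33 RPKM with shCycD1 and 11.4, 11.1 and 11.3 RPKM with shCtrl, a change of -2.63 ± 0.08 (adjusted p = 9.88e-07). This shugoshin guards centromeric cohesin in mitosis. Its value is uncertain because the antisense gene SGOL1-AS1 lies over it and moved alike, with 2.35, 3.27 and 3.48 RPKM in Granta-519 shCycD1 libraries and 7.49, 6.87 and 6.82 RPKM in shCtrl libraries. In JeKo-1 SGOL1-AS1 had 0.943, 1.13 and 0.907 RPKM in shCycD1 libraries and 7.49, 6.79 and 6.89 RPKM in shCtrl libraries, so there too it was lower in every silenced library.

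SGOL2, the other shugoshin and best known for its role in meiosis in mice, had 3.79, 4.15 and 4.04 RPKM in Granta-519 shCycD1 libraries and 9.25, 8.08 and 10.6 RPKM in shCtrl libraries. That was a change of -1.12 ± 0.11 (adjusted p = 0.000531). With JeKo-1 shCycD1 it had 1.19, 1.88 and 1.61 RPKM, and with shCtrl 10.7, 17.3 and 13.5 RPKM, a change of -2.79 ± 0.20 (adjusted p = 2.69e-05). Its shCtrl libraries in JeKo-1 were the most scattered of the 4 genes on a log scale, yet the lowest of them was 5.69 times the highest shCycD1 library. With spike-in scaling neither shugoshin passed the test in Granta-519, at -0.43 for SGOL1 (adjusted p = 0.249) and -0.38 for SGOL2 (adjusted p = 0.305).

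WAPAL, which opens the ring and so works against sororin, had 14.3, 15.6 and 13.8 RPKM in Granta-519 shCycD1 libraries and 15.5, 12.6 and 15.7 RPKM in shCtrl libraries. The groups overlapped, and the change was -0.00059 with a 95% interval of -0.25 to 0.25 (adjusted p = 0.997). In JeKo-1 it had 20.1, 20.03 and 25.2 RPKM with shCycD1 and 23.2, 25 and 28.6 RPKM with shCtrl, again overlapping. The change there was -0.23 with an interval of -0.51 to 0.05 (adjusted p = 0.13). It was called lower in JeKo-1 with replicate numbers fitted as a block (adjusted p = 0.0166) and without shCycD1 3 (-0.34, adjusted p = 0.0401), and called higher in Granta-519 with spike-in scaling (0.74, adjusted p = 0.038).

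**Figure D3:**
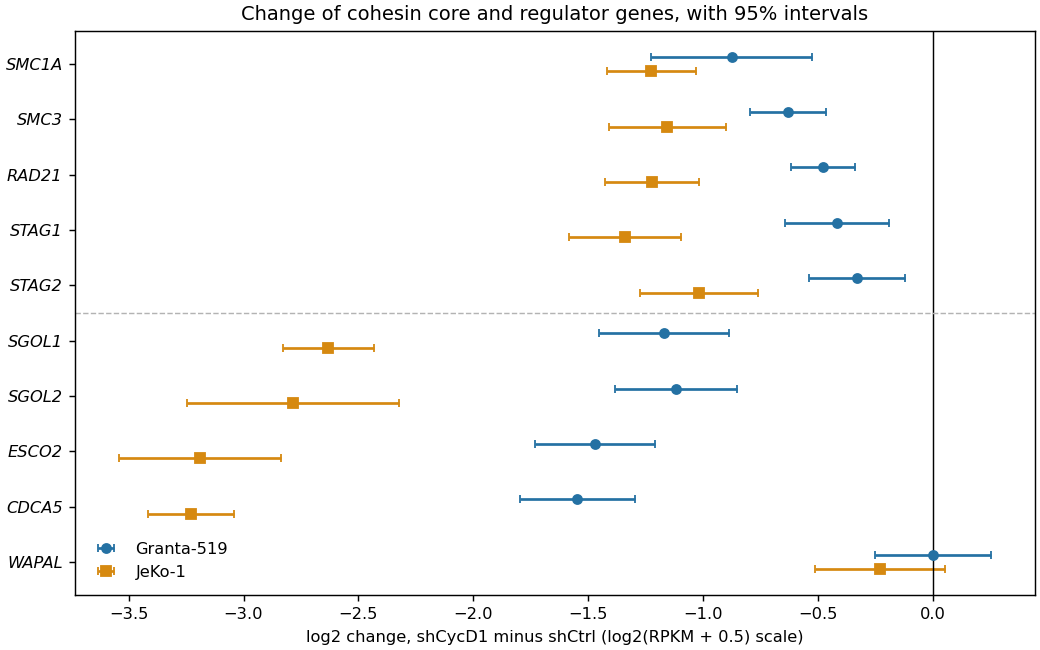
Log2 change of each gene, shCycD1 minus shCtrl, on the log2(RPKM + 0.5) scale, with Granta-519 as blue circles, JeKo-1 as orange squares and bars for 95% intervals (3 libraries per group). The 4 falling regulators sit further left than the core in both lines and the WAPAL intervals include 0; with spike-in scaling SMC3, RAD21, STAG1 and STAG2 of Granta-519 lie above 0.

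Ratios taken within each library are free of any scaling of the whole library, apart from the small pseudocount. The comparison covered 6 pairs and was made by an exact permutation test, two-sided, with labels permuted within each line. Its 400 arrangements allow no p under 0.005, and within 1 line no p under 0.1 is possible. CDCA5 over WAPAL, the stabiliser over the releaser, had a log2 ratio of 2.52 ± 0.18 in Granta-519 shCycD1 libraries and 4.07 ± 0.16 in shCtrl libraries (SD, n = 3 each). In JeKo-1 the ratio was -1.23 ± 0.27 with shCycD1 and 1.77 ± 0.21 with shCtrl. Over both lines it fell by 2.27, with no overlap in either (exact p = 0.005, adjusted over 6 pairs 0.01), and the JeKo-1 ratio was below 0 in shCycD1 libraries, which means a CDCA5 level under that of WAPAL if the values there are per exonic length.

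ESCO2 over ESCO1, its relative that acetylates cohesin outside S phase as well, had a log2 ratio of 0.84 ± 0.22 in Granta-519 shCycD1 libraries and 2.55 ± 0.13 in shCtrl libraries. In JeKo-1 it was -3.48 ± 0.03 with shCycD1 and -0.58 ± 0.15 with shCtrl. The mean change was -2.31 (exact p = 0.005, adjusted 0.01), again without overlap. ESCO2 passed the filter on low values in JeKo-1 through its shCtrl libraries alone. The JeKo-1 part of this ratio is therefore a description, and the p over both lines rests partly on it. A pseudocount of 0.1 gave a mean change of -2.73, and one of 1 gave -1.99. STAG1 over STAG2 changed by far less, -0.21 over both lines (exact p = 0.005, adjusted 0.01), with -0.09 in Granta-519 and -0.32 in JeKo-1. Its groups did not overlap in either line, but a pseudocount of 1 gave -0.16 and no call (adjusted exact p = 0.07). With a pseudocount of 0.1 it was -0.26 and called (adjusted exact p = 0.01). The other 3 pairs did not pass the test. They were SMC1A over SMC3 at -0.16 (exact p = 0.125), RAD21 over SMC3 at 0.04 (exact p = 0.62) and SGOL1 over SGOL2 at 0.05 (exact p = 0.72). RAD21 over SMC3 had opposite signs in the lines, 0.15 in Granta-519 without overlap and -0.07 in JeKo-1 with overlap. For SMC1A over SMC3 and SGOL1 over SGOL2 the groups overlapped in both lines.

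**Figure D4:**
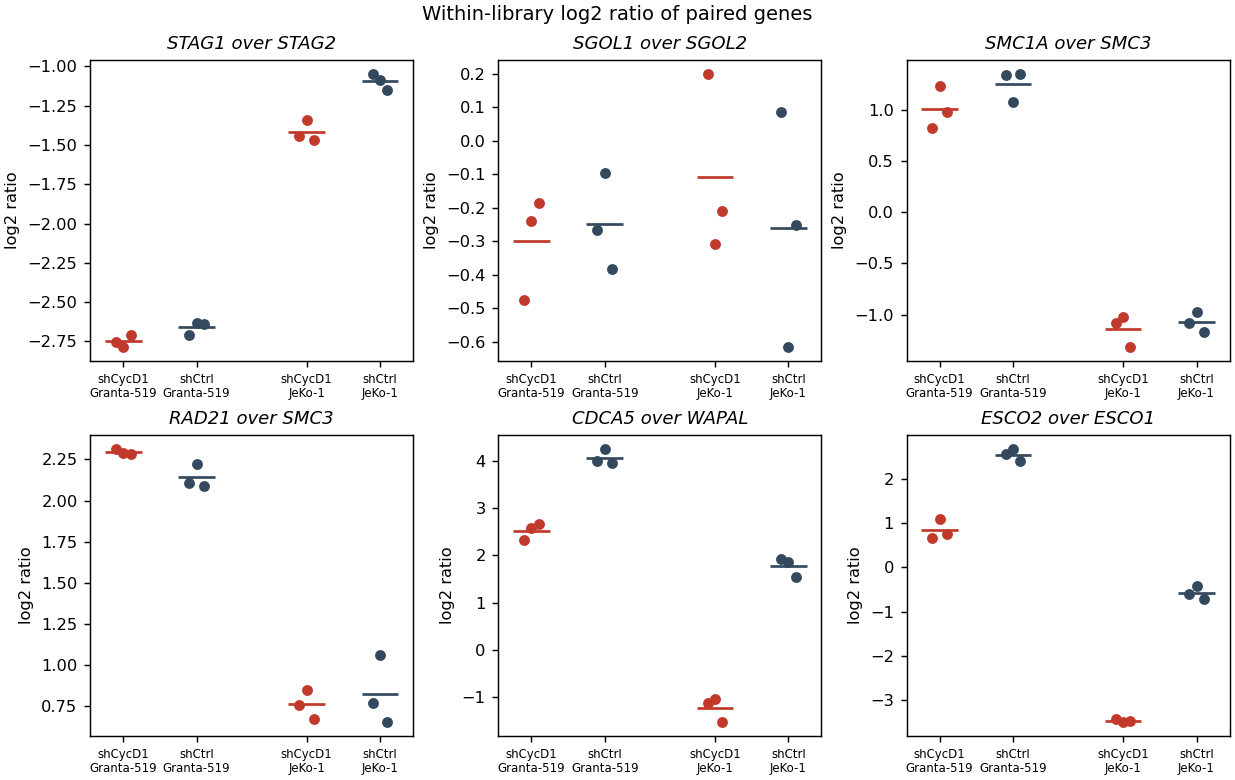
Log2 ratio of 6 gene pairs within each library, with shCycD1 in red left of shCtrl in dark blue for each line and a bar at each group mean (3 libraries per group). CDCA5 over WAPAL and ESCO2 over ESCO1 are lower in silenced cells of both lines without overlap, by 2.27 and 2.31 on average, whereas the SGOL1 over SGOL2 groups overlap. In JeKo-1 ESCO2 passed the filter on low values through its shCtrl libraries alone.

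Within JeKo-1, taken as per exonic length, the order of the genes differed between silenced and control cells. In shCycD1 libraries RAD21 was highest at 63.8 ± 5.13 RPKM (SD, n = 3), followed by SMC3 at 37.5, STAG2 at 29, WAPAL at 21.8, SMC1A at 16.7, STAG1 at 10.5 and CDCA5 at 8.97 RPKM. SGOL2 at 1.56, SGOL1 at 1.39 and ESCO2 at 0.411 RPKM came last. In shCtrl libraries RAD21 was also highest, at 149 ± 10.2 RPKM, but CDCA5 came next at 88.3, level with SMC3 at 84.4 RPKM. STAG2 at 59.1, SMC1A at 39.7, STAG1 at 27.3, WAPAL at 25.6, SGOL2 at 13.8, SGOL1 at 11.2 and ESCO2 at 7.87 RPKM followed. Neighbours whose libraries overlapped were STAG1 with CDCA5 and SGOL2 with SGOL1 in shCycD1 cells, and CDCA5 with SMC3, STAG1 with WAPAL and SGOL2 with SGOL1 in shCtrl cells. CDCA5 was the seventh in silenced cells and the second in control cells.

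The falls were deeper in JeKo-1 than in Granta-519 for 7 of the 9 genes other than ESCO2, by a limma contrast of the 2 changes over all 12 libraries. A difference in that direction was called for 19.3% of the 10653 genes, one more negative in Granta-519 for 22.6%, and one in either direction for 41.9%. Granta-519 minus JeKo-1, it was 1.68 ± 0.13 for CDCA5 (adjusted p = 3.59e-06), 1.67 ± 0.24 for SGOL2 (adjusted p = 0.000257) and 1.46 ± 0.14 for SGOL1 (adjusted p = 1.44e-05). For ESCO2, whose JeKo-1 direction the filter fixed, the 2 changes stood 1.72 apart, with 2.43 at a pseudocount of 0.1 and 1.23 at a pseudocount of 1, given as a description. Among core genes the difference was 0.92 for STAG1, 0.75 for RAD21, 0.69 for STAG2 and 0.52 for SMC3. SMC1A (0.35 ± 0.18, adjusted p = 0.131) and WAPAL (0.23 ± 0.17, adjusted p = 0.288) did not pass. CCND1 itself was lower by more in JeKo-1 (-2.38, against -1.83 in Granta-519, difference 0.55, adjusted p = 0.0306), and the part of this in the other differences was not tested. The CCND1 call was lost with quantile normalization (0.38) and without Granta-519 shCtrl 1 (0.53), shCtrl 3 (0.49), shCycD1 2 (0.46) or shCycD1 3 (0.48), as well as without JeKo-1 shCtrl 1 (0.45), shCycD1 1 (0.54) or shCycD1 2 (0.53), and under the log2 reading of JeKo-1 the direction turned, to -0.16 (adjusted p = 0.486). These sizes rest on reading the JeKo-1 table as a natural log, which is inferred. Read as log2, the differences were 0.91 for ESCO2, 0.77 for CDCA5, 0.95 for SGOL2, 0.79 for SGOL1, 0.55 for STAG1, 0.39 for STAG2 and 0.38 for RAD21, and SMC3 lost its call (0.19, adjusted p = 0.183). SMC3 also lost it with GC correction (0.21, adjusted p = 0.179), which put STAG2 at 0.29 and RAD21 at 0.48. Spike-in scaling shifts the difference of every gene by the same amount. With it all 10 differences were called, the lowest being 1.10 for WAPAL and the highest, ESCO2 aside, 2.55 for CDCA5. Among all 10653 genes 4043 were then called in either direction.

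The wider pathway was followed by lists of genes that act with cohesin. The lists were chosen with earlier results of these data known, so their counts are descriptions. Of 6 tested genes for loading, release, acetylation and anchoring in Granta-519, 2 fell and 0 rose, against 18.2% and 22.4% of all genes. Of 7 tested in JeKo-1, 4 fell and 1 rose, against 27.8% and 36.7% of all genes. NIPBL, the loader, had a change of -0.03 in Granta-519 (adjusted p = 0.905). It fell by 0.41 in JeKo-1 (adjusted p = 0.0156). Its partner MAU2 was at 0.29 in Granta-519 (adjusted p = 0.116). In JeKo-1 MAU2 rose by 1.05, with 14.2, 15.9 and 13.6 RPKM in shCycD1 libraries and 6.66, 6.78 and 6.82 RPKM in shCtrl libraries (adjusted p = 5.92e-05). PDS5B, a ring-bound cofactor of sororin and WAPAL, fell by 0.44 in Granta-519 (adjusted p = 0.0202), and JeKo-1 showed a change of -1.40 (adjusted p = 2.35e-05). Its relative PDS5A was at -0.03 in Granta-519 and fell by 0.42 in JeKo-1. CTCF, which stops cohesin at loop anchors, fell in both, with changes of -0.49 in Granta-519 and -0.72 in JeKo-1. With spike-in scaling CTCF and PDS5B were at 0.25 and 0.31 in Granta-519, and the JeKo-1 calls of NIPBL and PDS5A were lost. GC correction also ended both JeKo-1 calls, at -0.066 for NIPBL (adjusted p = 0.505) and -0.14 for PDS5A (adjusted p = 0.202). The PDS5B call in Granta-519 was also lost with replicate numbers fitted as a block (adjusted p = 0.0576) and without shCtrl 1 (-0.40), shCtrl 3 (-0.38), shCycD1 1 (-0.38) or shCycD1 3 (-0.43), and that of NIPBL in JeKo-1 without shCycD1 1 (-0.36).

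Genes that control when cohesion ends in mitosis fell as a whole list in Granta-519, 10 of 10, with a median change of -1.37. Of all genes tested in that line, 18.2% fell. In JeKo-1 ESPL1 passed the filter on low values through its shCtrl libraries alone, and the other 9 of 9 fell, with a median of -2.94. There 27.8% of all tested genes fell. Separase itself, ESPL1, had 7.53, 9.04 and 8.58 RPKM in Granta-519 shCycD1 libraries and 22.9, 16.0 and 26.5 RPKM in shCtrl libraries. In JeKo-1 it had 0.779 to 0.970 RPKM with shCycD1 and 8.58 to 9.08 RPKM with shCtrl. Its inhibitor securin, PTTG1, changed by -1.08 in Granta-519 cells and -2.57 in JeKo-1 cells, and both passed. The mitotic kinases that drive removal or protection of cohesin also fell, with PLK1 at -1.5, BUB1 at -1.21 and CDK1 at -1.38 in Granta-519. The JeKo-1 changes were -3.67 for PLK1, -2.66 for BUB1 and -3.94 for CDK1. With spike-in scaling PLK1 (-0.76) and CDK1 (-0.64) kept their calls in Granta-519, and ESPL1, PTTG1 and BUB1 stayed negative without passing.

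Of 8 genes that establish cohesion at the replication fork, 7 fell in each line, with medians of -1.13 in Granta-519 and -1.87 in JeKo-1. Among all tested genes 18.2% fell in Granta-519 and 27.8% in JeKo-1. DSCC1, of the clamp loader that serves cohesion, was lower by a change of -1.22 in Granta-519 and -3.43 in JeKo-1. PCNA, the sliding clamp to which ESCO2 binds, was at -1.20 in Granta-519 cells and -3.08 in JeKo-1. WDHD1, a replisome scaffold, was at -1.11 in Granta-519 cells and -2.18 in JeKo-1 cells, and these falls were all called. CHTF18, which sits in the same clamp loader as DSCC1, fell too, with changes of -1.15 in Granta-519 and -0.85 in JeKo-1, with no call for the difference (-0.30, adjusted p = 0.266). Those 4 genes stayed negative in Granta-519 with spike-in scaling but did not pass the test there.

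The meiotic cohesin genes SMC1B and RAD21L1 were under the minimum for testing. STAG3, the meiotic relative of STAG1 and STAG2, had 2.48, 2.38 and 2.37 RPKM in Granta-519 shCycD1 libraries and 1.94, 1.86 and 2.0 RPKM in shCtrl libraries. This rise of 0.26 (adjusted p = 0.0403) lost its call without any single library (adjusted p of 0.0637 to 0.132), with the replicate block (0.0946), with quantile normalization (0.0799) and with no filter on low values (0.0555). In JeKo-1 STAG3 had 2.90, 2.72 and 4.32 RPKM with shCycD1 and 1.96, 1.94 and 1.86 RPKM with shCtrl, a rise of 0.63 (adjusted p = 0.0102) that was not called with spike-in scaling (0.50, adjusted p = 0.255). REC8, the meiotic counterpart of RAD21, fell in Granta-519 (9.80, 11.4 and 10.6 RPKM with shCycD1, 16.0, 17.9 and 15.8 RPKM with shCtrl, change -0.62, adjusted p = 0.00219). It rose in JeKo-1, with 31.0, 29.9 and 26.6 RPKM in shCycD1 libraries and 17.3, 14.6 and 16.3 RPKM in shCtrl libraries (0.84, adjusted p = 0.000256), but with spike-in scaling the JeKo-1 call was lost (0.71, adjusted p = 0.0827). The difference of -1.46 was called (adjusted p = 9.4e-06), but with spike-in scaling it was -0.59 and was not (adjusted p = 0.243), and REC8 was then at 0.12 in Granta-519. Among condensin and SMC5/6 genes, relatives of cohesin that compact chromosomes and repair DNA, 9 of 12 tested fell in Granta-519 and 10 of 13 in JeKo-1. The shares of all tested genes that fell were 18.2% in Granta-519 and 27.8% in JeKo-1. SMC2 of condensin changed by -1.17 in Granta-519, by -2.62 in JeKo-1 cells, and was called lower in each, whereas SMC6 passed the test in neither line (0.08 in Granta-519 and -0.24 in JeKo-1). SMC6 was called lower in JeKo-1 with the replicate block (adjusted p = 0.0287) and without shCycD1 3 (-0.42, adjusted p = 0.0229), and called higher in Granta-519 with spike-in scaling (0.82, adjusted p = 0.0254).

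**Figure D5:**
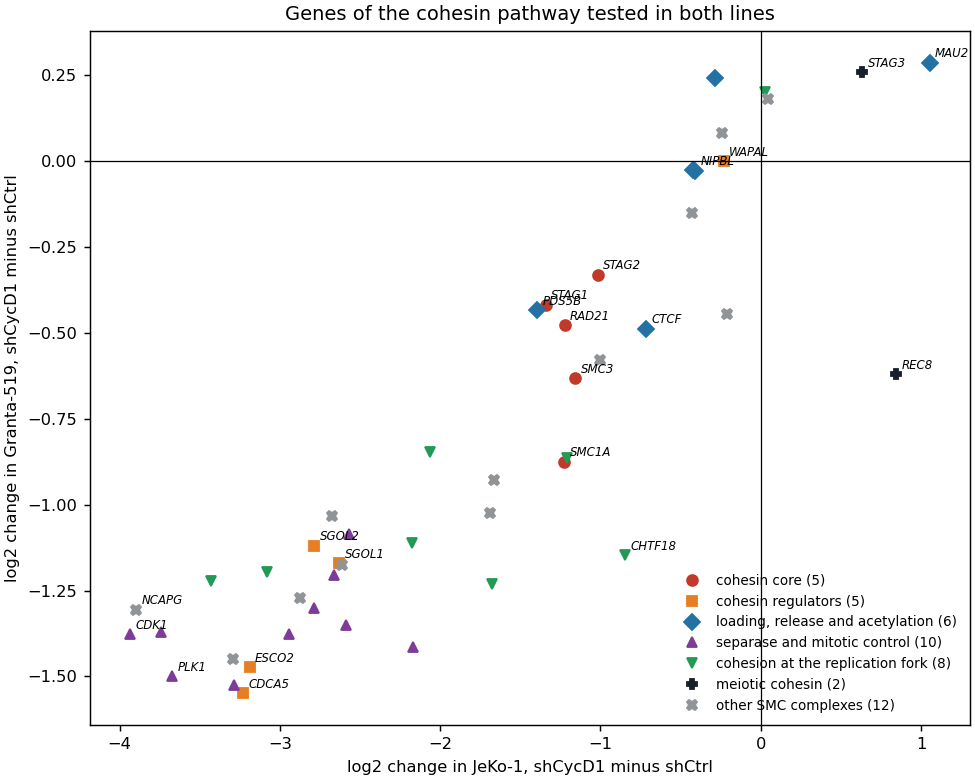
Change of each pathway gene tested in both lines, JeKo-1 on the horizontal and Granta-519 on the vertical axis, both as log2 change of shCycD1 minus shCtrl with markers for the gene list. Mitotic and most replication fork genes lie with CDCA5, ESCO2, SGOL1 and SGOL2 at the lower left, the core lies nearer 0, and MAU2 and STAG3 lie at the upper right; with spike-in scaling the median gene of Granta-519 lies at 0.77 and the core genes SMC3, RAD21, STAG1 and STAG2 lie above 0.

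Genes nearest to the regulators were found by the Euclidean distance of log2 deviations from the shCtrl mean of the same line, over 12 libraries and 10653 genes. Nearest to CDCA5 were KIF2C (0.28), ZWINT (0.29) and ASF1B (0.31), where the median gene lay at 6.41. For ESCO2 they were SHCBP1 (0.37), CDCA2 (0.38) and FAM72A (0.39), with the median gene at 6.30, and FAM72A has near-identical copies, so its reads are uncertain. SGOL1 lay nearest to FANCI (0.24), CENPN (0.37) and BUB1 (0.37), and SGOL2 to TTK (0.32), RACGAP1 (0.45) and AURKA (0.46). These distances describe likeness over these libraries.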

How the data were processed

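RNA of 12 libraries in 4 groups of 3 was sequenced by the authors, with a stranded mRNA kit per the labels' protocols. Tools listed in the submitters' processing notes are TopHat2 2.1.1, FastQC and limma 3.9, and the human build is listed as hg19 or GRCh37. Not given in the sources used here are the counting program, its use of strand, the annotation and the log. The authors deposited 1 table per line, read here as the natural log of RPKM + 1. In Granta-519, 86.7 to 89.6% of low values per library were then whole multiples of a step (tolerance 0.1), against 50.8 to 58.9% with base 2. In JeKo-1 no base stood out (32.1 to 39.3% with the natural log). The natural log was chosen there from the spread of the spike-ins, whose SD relative to Granta-519 was 0.987 (36 library pairs), so this reading is inferred, and log2 was an alternative.

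Values were taken out of the log, with the row of highest mean for each symbol. For each line, limma 3.58.1 (R 4.3.3; trended empirical Bayes) was fitted to log2(RPKM + 0.5) of the genes that reached 1 RPKM in 3 or more of the 6 libraries, a scale which understates changes of low genes. Benjamini-Hochberg adjusted p under 0.05 was called, over all tested genes. A joint fit of 12 libraries gave the difference between the lines. Errors of changes are standard errors. The fits and the exact permutation test were tested on simulated data. Groups and replicate numbers came from the sample titles. The members and all gene lists were chosen with earlier results of these data known. Named were all 10 members, CCND1, up to 6 genes of each list, and the 3 genes nearest to each of 4 regulators. Markers of B cells, mantle cell lymphoma, T and NK cells, myeloid cells, proliferation, and epithelial, fibroblast and packaging cells were listed. Alternatives were 2 other pseudocounts, no filter, quantile normalization, spike-in scaling, library weights, a replicate block, GC correction (5 df spline; 93.7% of 23800 symbols had a transcript in GENCODE, build GRCh38), log2 reading and leaving out each library.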

Additional observations from a re-analysis of the deposited data

Results flagged for a closer look

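Of the named genes, 24 changed by different amounts in the 2 lines by the limma contrast of Granta-519 minus JeKo-1, at an adjusted p under 0.05. Of these, 8 were cohesin genes, with differences of 1.72 for ESCO2, 1.68 for CDCA5, 1.67 for SGOL2, 1.46 for SGOL1, 0.92 for STAG1, 0.75 for RAD21, 0.69 for STAG2 and 0.52 for SMC3, each more negative in JeKo-1. The other genes more negative in JeKo-1 were NCAPG (2.59), CDK1 (2.56), MKI67 (2.35), DSCC1 (2.21), PLK1 (2.17), PCNA (1.88), ESPL1 (1.49), PTTG1 (1.48), BUB1 (1.46), SMC2 (1.44), WDHD1 (1.06), PDS5B (0.96), CCND1 (0.55) and PDS5A (0.39). For REC8 (-1.46), with opposite directions in the lines, and MAU2 (-0.77) the difference had the other sign. ESCO2 and ESPL1 passed the filter on low values in JeKo-1 through their shCtrl libraries alone, so a more negative change there is partly built in. Without them 22 such genes remain, 7 of them cohesin genes. The size for these 2 depends on the pseudocount, with 2.43 at 0.1 and 1.23 at 1 for ESCO2, and 1.89 at 0.1 and 1.15 at 1 for ESPL1. The PDS5A call (adjusted p = 0.0415) was lost when any single library other than Granta-519 shCtrl 3, JeKo-1 shCtrl 1 or JeKo-1 shCycD1 2 was left out (9 of 12 fits, with differences of 0.32 to 0.42), and also with quantile normalization (0.37, adjusted p = 0.0503), GC correction (0.14, adjusted p = 0.353) and the log2 reading of JeKo-1 (0.27, adjusted p = 0.0854). A difference was called for 41.9% of all genes tested in both lines, so a call by itself is common.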

How the results depend on the processing

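The 9 members called in Granta-519 were 2 with spike-in scaling, 8 with the replicate block and 8 to 9 without single libraries. In JeKo-1, with ESCO2 counted, they were 10 with the block and 9 to 10 without single libraries. The 8 differences between the lines, ESCO2 counted, were 8 with the block, 8 in every leave-one-out fit, 10 with spike-in scaling and 7 with GC correction or the log2 reading. Over all genes the called differences were 4463 of 10653 in the main fit and 4043 with spike-in scaling. They were 3715 of 10312 with GC correction and 3413 of 10131 with the log2 reading. The 3 called ratios, ESCO2 over ESCO1 counted, stayed 3 without any library and were 2 with a pseudocount of 1. Spike-in scaling turned these Granta-519 changes positive: SMC3 0.11, RAD21 0.26, STAG1 0.32, STAG2 0.41, WAPAL 0.74, NIPBL 0.71, PDS5A 0.72, PDS5B 0.31, CTCF 0.25, REC8 0.12 and SMC5 0.59, and the differences of MAU2 (0.10), CHTF18 (0.57) and STAG3 (0.50). Over all genes it called 112 lower and 7309 higher in Granta-519, against 2303 and 2840, and 1598 lower and 1335 higher in JeKo-1, against 3303 and 4357. Library weights called 3579 lower and 4035 higher in Granta-519, and the block called 1903 lower there and 3806 in JeKo-1. GC correction gave 0.034 for WAPAL, 0.012 for NIPBL and 0.0044 for PDS5A in Granta-519, 0.066 for WAPAL, 0.13 for ESCO1 and 0.15 for SMC6 in JeKo-1, and differences of -0.032 for WAPAL, 0.29 for CHTF18, -0.11 for SMC5 and -0.035 for SMC6. The log2 reading put the CCND1 difference at -0.16. Without single libraries, values ran across 0 in Granta-519 for WAPAL (-0.099 to 0.052), NIPBL (-0.212 to 0.065), PDS5A (-0.073 to 0.027) and SMC6 (-0.0012 to 0.17), and over both lines for SGOL1 over SGOL2 (-0.038 to 0.138) and RAD21 over SMC3 (-0.00024 to 0.10). The cause of these shifts was not tested. Same-numbered shCycD1 and shCtrl libraries deviated together at r of 0.187, 0.0949 and 0.103 in JeKo-1 and 0.0055, -0.124 and 0.033 in Granta-519. Differently numbered shCycD1 and shCtrl libraries had r of -0.102 to 0.00053 in JeKo-1, below every same-numbered value there. In Granta-519 they had r of -0.12 to 0.108. The main fits took no pairs because no source used here gives any. Whether the JeKo-1 numbers mark pairs is not settled, and the block is the alternative for that.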
